A study of Mus musculus with 17 samples.

Results

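Cirbp and Rbm3 encode small cold-inducible RNA-binding proteins, and their transcripts were read in the hippocampus of 17 male mice, 1 Affymetrix expression array per animal. The rule kept every probe set, a group of short probes that reads 1 transcript region, whose platform annotation gives 1 gene symbol, that symbol being Cirbp or Rbm3. It found 1 of 45037 probe sets, 1416332_at for Cirbp, and 0 for Rbm3, so that 1 of the 18193 genes with a probe set of their own is described as a member. A further 2 probe sets, 1422660_at and 1429169_at, are annotated to both Rbm3 and its pseudogene Rbm3-ps. They lie outside the rule, they are called here by their identifiers, and their signal cannot be assigned to either copy. The genes were chosen by their measured difference between the groups on these arrays, which was among the largest decreases after sleep deprivation. All group differences of these 3 probe sets are therefore descriptions, given with no p-value.

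The 8 sleep-deprived mice were kept awake by gentle handling in the home cage for 5 h of the light phase. The 9 undisturbed mice were left in their home cages over the same window, with dissections alternating between the groups. All 17 were individually housed C57BL/6J males on a 12 h light and 12 h dark cycle, handled daily for 6 days beforehand, at 2 months of age per the sample labels and 2 to 4 months per the growth protocol. With no group that was handled equally but slept, the effects of wakefulness and of handling cannot be told apart.

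CIRBP and RBM3 each carry an RNA recognition motif and a glycine-rich tail, and their mRNAs are known to accumulate in mildly cooled mammalian cells and to fall on warming. Both proteins bind mRNAs, where they influence stability, translation and the choice of polyadenylation site, and CIRBP is known to support the amplitude of the circadian clock. In cooled mouse brain, RBM3 has been linked to the regeneration of synapses. Brain temperature itself follows sleep and waking, and it was not measured in these data.

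Because transcript levels of Cirbp are the subject here, the 250 bases before the upstream one of its 2 RefSeq transcription starts are shown, on the plus strand of GRCm38.p6 at chr10:80167589-80167838. Capitals mark an octamer reported as a cold-responsive element that binds the transcription factor SP1.
Cirbp promoter: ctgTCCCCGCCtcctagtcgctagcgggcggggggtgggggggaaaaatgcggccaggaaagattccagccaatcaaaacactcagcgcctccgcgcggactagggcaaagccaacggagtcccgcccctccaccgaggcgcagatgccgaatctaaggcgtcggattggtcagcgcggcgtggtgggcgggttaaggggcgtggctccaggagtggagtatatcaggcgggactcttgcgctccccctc
The octamer TCCCCGCC, searched on both strands, occurred 1 time, at bases 247 to 240 before the start, and 4.64% of 32851 RefSeq windows of the same length held it. The GC box GGGCGG, also searched on both strands and not overlapping the octamer here, occurred 3 times in the stretch and was held by 32.7% of windows. The heat shock element core GAANNTTC and the E-box CACGTG, held by 6.69% and 6.02% of windows, were not found in these letters. The second window, 332 bases downstream, held 4 GC boxes and no other of these motifs. Guanine and cytosine made up 65.6% of the bases shown, more than in 83.8% of windows.

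Arrays were much alike, with medians between 6.13 and 6.22 log2 signal and correlations between 0.993 and 0.998. One array stood apart in RNA quality: the mean 3' minus 5' signal of the Gapdh and actin controls was 0.42 in sleep-deprived replicate 5 and lay between 0.20 and 0.30 in the other 16 animals. All 10 hippocampal neuron markers were measured, at 7.38 to 12.6 log2 signal. Of 10 measured choroid plexus markers (12 listed), a tissue that adjoins the hippocampus, all had positive differences and none passed limma's test (1 higher at an unadjusted p under 0.05). Their mean ran from 5.78 to 7.52 in sleep-deprived and from 5.76 to 7.25 in undisturbed animals. The endothelial genes Slco1a4 and Tek fell (-0.32 and -0.26, limma adjusted p = 0.0057 and 0.040), 2 of 6 on that list, beside 2.73% of all genes. The other 4 did not pass, with Cldn5 at -0.17, Cdh5 at 0.0098, Flt1 at 0.021 and Pecam1 at 0.052. Tek passed in the fit over genes but its only probe set did not pass in the fit over all probe sets.

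Cirbp was lower after sleep deprivation. Its signal was 8.49, 8.45, 8.20, 8.94, 8.10, 8.58, 8.63 and 8.44 log2 units in sleep-deprived replicates 1 to 8, against 9.06, 9.04, 9.31, 8.91, 9.24, 9.26, 9.26, 9.04 and 9.28 in undisturbed replicates 1 to 9. All 8 sleep-deprived animals were below the undisturbed mean, and 7 were below every undisturbed animal. The groups touched through 1 animal each: sleep-deprived replicate 4, the highest of its group, exceeded undisturbed replicate 4, the lowest of its group, by 0.025. The means were 8.48 ± 0.26 (SD, n = 8) in sleep-deprived and 9.16 ± 0.14 (SD, n = 9) in undisturbed animals, a difference of -0.68 (SE 0.089), or 1.60-fold lower. In the hippocampus as a whole, fewer cells of a type and less RNA per cell cannot be told apart.

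The brighter probe set of Rbm3 and Rbm3-ps, 1422660_at, was lower by a similar amount. It read 10.27, 10.29, 9.83, 10.59, 9.49, 10.50, 10.70 and 9.89 log2 units in sleep-deprived replicates 1 to 8, against 10.82, 10.82, 11.14, 10.92, 11.01, 10.97, 10.96, 10.89 and 11.15 in undisturbed replicates 1 to 9. The groups did not overlap, and a gap of 0.12 separated the highest sleep-deprived from the lowest undisturbed animal. The means were 10.20 ± 0.42 (SD, n = 8) in sleep-deprived and 10.96 ± 0.12 (SD, n = 9) in undisturbed animals, a difference of -0.77 (SE 0.13), or 1.70-fold lower. Of 45037 probe sets, only 1 of Rprd2 (-0.84) had a more negative difference, and Cirbp followed in rank 3.

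The dimmer probe set of the same annotation, 1429169_at, went the other way. It was dim in every animal, its highest signal of 5.86 lying below the lowest array median, 6.13. It read 5.85, 5.73, 5.80, 5.78, 5.79, 5.86, 5.54 and 5.65 log2 units in sleep-deprived replicates 1 to 8. In the undisturbed replicates 1 to 9 it read 5.48, 5.54, 5.10, 5.43, 5.40, 5.26, 5.31, 5.30 and 5.18. The groups did not overlap, although the margin was 0.00060 between sleep-deprived replicate 7 and undisturbed replicate 2. The means were 5.75 ± 0.11 (SD, n = 8) in sleep-deprived and 5.33 ± 0.14 (SD, n = 9) in undisturbed animals, a difference of 0.42 (SE 0.060), or 1.34-fold higher. Which transcripts of Rbm3 or Rbm3-ps each of these probe sets reads is not given in the sources used here.

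**Figure D1:**
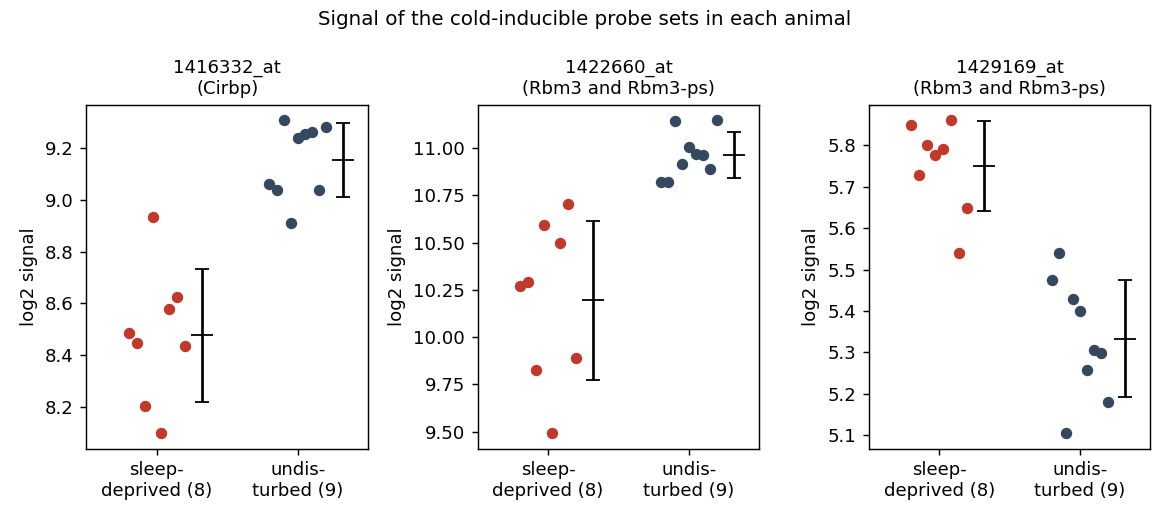
Log2 signal of 1416332_at (Cirbp), 1422660_at and 1429169_at (both Rbm3 and Rbm3-ps) in 8 sleep-deprived (left) and 9 undisturbed (right) animals, 1 point per animal, with the mean and SD beside the points. The first and second are lower and the third is higher in sleep-deprived animals, with a wide spread of 1422660_at among sleep-deprived animals (SD 0.42, against 0.12 in undisturbed animals).

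In the fit over all probe sets, whose contrast is the one that chose the genes, all 3 were among the calls at an adjusted p under 0.05 in limma, as were 1.81% of all probe sets. Cirbp and 1422660_at were among the lower calls, as were 1.23% of all probe sets, and 1429169_at as higher, as were 0.584%. Groups that did not overlap were found as lower in 0.349% and as higher in 0.138% of all probe sets. Since this contrast chose the genes, nothing is read from these counts. The differences kept their direction without the array that stood apart in RNA quality, sleep-deprived replicate 5. They were then -0.63, -0.67 and 0.41 for Cirbp, 1422660_at and 1429169_at. For Cirbp and 1422660_at these were the smallest decreases seen when any single array was left out. With the choroid plexus marker mean as a covariate the 3 differences were -0.64, -0.75 and 0.43.

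The probe set of Rbm3os, a noncoding RNA gene whose RefSeq span overlaps that of Rbm3 on chromosome X, was added after its values were seen. It had 4.10 ± 0.10 (SD, n = 8) log2 units in sleep-deprived and 4.12 ± 0.12 (SD, n = 9) in undisturbed animals. The difference of -0.015 (SE 0.055) did not pass limma's test over all probe sets (adjusted p = 0.93), and the signal was dim in both groups.

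Cirbp and 1422660_at, but not 1429169_at, were more spread among sleep-deprived than among undisturbed animals, a difference that was not tested. The SD of Cirbp among sleep-deprived animals was 1.80 times that among undisturbed animals, and for 1422660_at the ratio was 3.50. Among sleep-deprived animals these SDs exceeded those of 97.1% and 99.7% of all probe sets, against 73.1% and 56.3% among undisturbed animals. For 1429169_at the ratio was 0.77. The lowest Cirbp signals, 8.10 and 8.20 in sleep-deprived replicates 5 and 3, came from the animals with the lowest 1422660_at signals, 9.49 and 9.83. Replicate 5 was the array that stood apart in RNA quality, and the spread without it was not computed. Replicates 5 and 3 also had high choroid plexus marker means, 7.46 and 7.52. So did replicate 7 (7.49), which had the highest 1422660_at signal of its group, 10.70.

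The spread between animals of a group was not used to choose the genes, and over it Cirbp and 1422660_at varied together. Among the 8 sleep-deprived animals Pearson's r was 0.88 (exact permutation, two-sided p = 0.0025, adjusted p = 0.0082 over 6 relations) and Spearman's rho was 0.95 (exact permutation p = 0.0011, adjusted p = 0.0068). Without the 2 animals farthest from the median Cirbp signal r was 0.88 (n = 6, exact permutation p = 0.017), and without sleep-deprived replicate 5 it was 0.80 (exact permutation, adjusted p = 0.038). Among the 9 undisturbed animals r was 0.76 (exact permutation p = 0.018, adjusted p = 0.035) and rho was 0.77 (exact permutation p = 0.021, adjusted p = 0.043). It was 0.90 without the 2 farthest animals (n = 7, exact permutation p = 0.0091). The undisturbed relation kept its direction without any 1 animal but missed the threshold without undisturbed replicate 1, 2, 3, 8 or 9 (adjusted p up to 0.085). Undisturbed Cirbp signals left a gap between 9.06 and 9.24, with 4 animals below and 5 above it, too few on either side for a separate value.

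The dimmer 1429169_at ran against the other probe sets in undisturbed animals. Its r with 1422660_at was -0.87 (n = 9, exact permutation p = 0.0027, adjusted p = 0.0082; rho -0.82, exact permutation p = 0.011, adjusted p = 0.032). Without the 2 animals farthest from the median of 1422660_at it was -0.67 (n = 7, exact permutation p = 0.11). The share of those 2 animals in the call and the effect of the smaller n cannot be told apart. With each 1 animal left out the relation passed in 9 of 9 cases (r from -0.92 to -0.81, adjusted p up to 0.042). Its r with Cirbp was -0.72 (n = 9, exact permutation p = 0.033, adjusted p = 0.049; rho -0.72, exact permutation p = 0.037, adjusted p = 0.055), and -0.90 without the 2 animals farthest from the median Cirbp signal (n = 7, exact permutation p = 0.00040). The adjusted p of that relation rose over the threshold without any 1 of 7 of the 9 animals, replicates 5 and 8 being the exceptions (up to 0.12). Among sleep-deprived animals neither relation passed, with r = -0.23 for 1422660_at (rho -0.29, exact permutation p = 0.59 and 0.50) and r = -0.16 for Cirbp (rho -0.12, exact permutation p = 0.70 and 0.79). Whether the groups differ in these correlations was not tested.

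**Figure D2:**
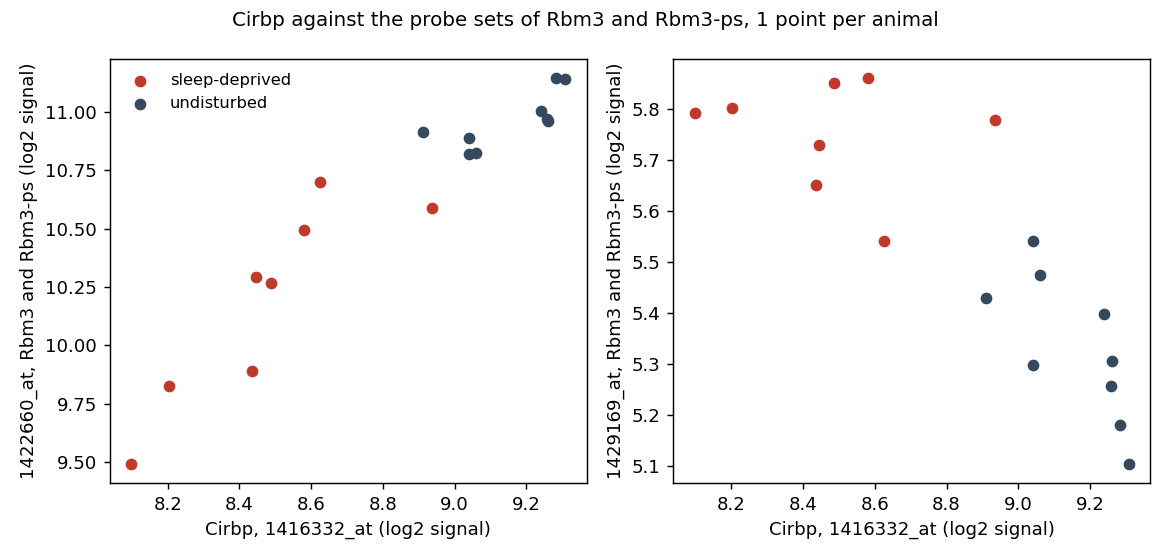
Log2 signal of 1422660_at (left) and 1429169_at (right), both annotated to Rbm3 and Rbm3-ps, against that of Cirbp, 1 point per animal, for 8 sleep-deprived and 9 undisturbed animals. On the left, points rise from lower left to upper right within each group (r = 0.88 in sleep-deprived and 0.76 in undisturbed animals); on the right they fall within the undisturbed animals (r = -0.72).

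The RNA quality measure and the choroid plexus marker mean were set against the 3 probe sets within each group after the data were seen, and none of the 12 relations passed (smallest adjusted p = 0.79, exact permutation). The smallest unadjusted p belonged to 1422660_at and the 3' minus 5' signal in sleep-deprived animals (r = -0.56, rho -0.19, exact permutation p = 0.13 and 0.66), and r was -0.027 without the 2 farthest animals. For Cirbp in sleep-deprived animals, r was -0.40 with the 3' minus 5' signal and -0.50 with the marker mean (rho -0.12 and -0.19, exact permutation p = 0.32 and 0.22). Without the 2 animals farthest on those measures the values were 0.54 and -0.63.

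Over all 17 animals, no gene followed Cirbp as closely as 1422660_at did. Likeness was measured as Pearson's r against 8900 genes of at least median signal, each through its brightest probe set, and is a description. After each group's mean was subtracted, 1422660_at had r = 0.83 with Cirbp and 0 of the 8900 genes were higher. For 1422660_at, in turn, Cirbp came in rank 2, behind Me3 (0.86), which encodes a mitochondrial malic enzyme. The genes that followed Cirbp next were Apbb3 (0.81), which encodes a binding partner of the amyloid precursor protein, Cyrib (0.81), Homer3 (0.80), a postsynaptic scaffold gene, the centromere protein gene Cenpb (0.79), the transcription factor gene Cebpd (0.76) and Dcaf8 (0.76). None of these 6 passed limma's test between the groups, with differences from -0.15 for Cenpb to 0.15 for Homer3 (adjusted p = 0.18 and 0.17). Homer3 and Cenpb followed Cirbp in each group (r = 0.79 and 0.77 among sleep-deprived, 0.91 and 0.88 among undisturbed animals).

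The genes that ran most against Cirbp were Senp3, which encodes a SUMO protease (r = -0.79), Prrg3 (-0.77) and Sp1 (-0.75), which encodes the factor reported to bind the octamer shown in capitals above. For 1422660_at, Sp1 had the most negative value of the 8900 genes, r = -0.92, with -0.96 among sleep-deprived and -0.79 among undisturbed animals, followed by Prrg3 (-0.85) and Gramd3 (-0.81). The genes most like 1422660_at after Me3 and Cirbp were Dcaf8 (0.83), Matn2 (0.82), Cebpd (0.82), Foxo3 (0.79) and Rgs14 (0.79), and Cebpd and Dcaf8 were thus shared by both sets of 6. Sp1 itself was at 8.88, 9.02 and 9.21 (lowest, median, highest) in sleep-deprived and 9.04, 9.12 and 9.18 in undisturbed animals (-0.074, SE 0.046, limma adjusted p = 0.40), the sleep-deprived animals being the more spread. It was read through 1 of its 3 probe sets, whose group differences ran from -0.12 to 0.087. The r of its other probe sets, and r without sleep-deprived replicate 5, were not computed. A link between Sp1 and these transcripts was not tested.

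**Figure D3:**
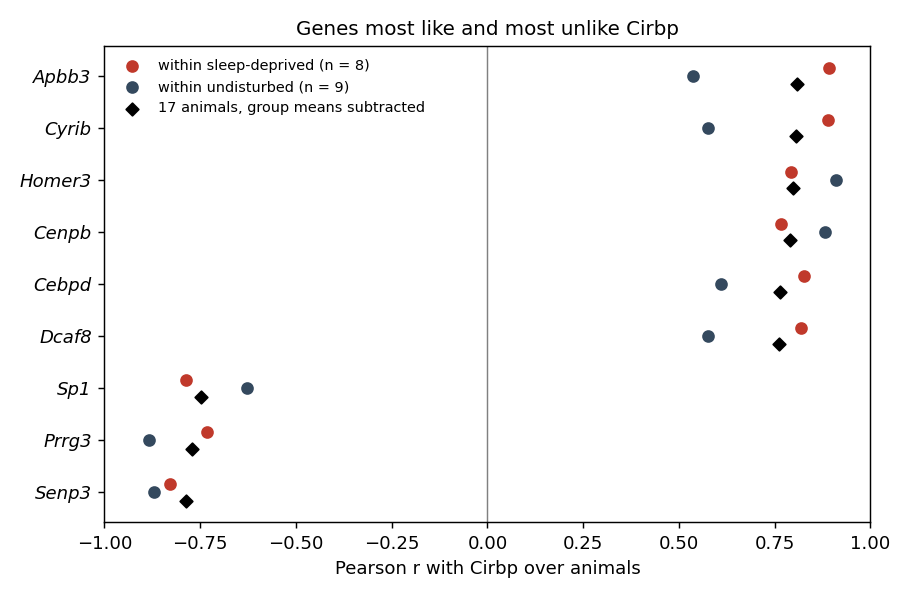
Pearson's r of 9 genes with Cirbp over animals, within 8 sleep-deprived animals, within 9 undisturbed animals, and over all 17 with group means subtracted (diamonds). Apbb3 to Dcaf8 are the 6 highest and Sp1, Prrg3 and Senp3 the 3 lowest of 8900 genes by the last measure, and all 9 keep their sign in each group.

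With the group difference left in, r largely restates the contrast that chose the genes and supports nothing further. By that measure 1422660_at came before all 8900 genes (r = 0.94 over 17 animals), and 6 genes had a lower r with Cirbp than 1429169_at (-0.85). Ppp1r1a, which encodes a phosphatase inhibitor (0.93), the initiation factor gene Eif2d (0.91), Fam204a (0.89), Rab33a (0.88), Hnrnpdl (0.87) and Rbmx (0.87) came next. The last pair encodes RNA-binding proteins of the related list below. Their r with Cirbp was 0.65 and 0.82 among sleep-deprived animals, against -0.36 and -0.063 among undisturbed animals.

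Beyond the members, 7 lists of genes around CIRBP and RBM3 were read from limma's fit over 18193 genes, each through its brightest probe set, in which 496 genes fell and 227 rose (2.73% and 1.25% of all genes). After quantile normalization 390 fell and 335 rose, and after median centring 611 fell and 142 rose. Without undisturbed replicate 4, 481 genes passed in all. The median difference of all genes was 0.0016. Counts at an unadjusted p under 0.05 are given for several lists without the share of all genes at that threshold, so nothing is read from them.

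Related RNA-binding protein genes fell in 3 of 18 measured cases and rose in none (limma; 5 lower and 0 higher at an unadjusted p under 0.05), with a median difference of -0.055. Hnrnpdl, a heterogeneous nuclear ribonucleoprotein gene, was at 12.39, 12.55 and 12.62 (lowest, median, highest) in sleep-deprived animals and 12.75, 12.84 and 12.91 in undisturbed animals, without overlap, as in 0.731% of all genes. It fell by 0.31 (SE 0.042, limma adjusted p = 0.00025), and 5 of its 7 probe sets passed as lower, with differences down to -0.64. Rbmx, which encodes an X-linked splicing factor with the same type of RNA recognition motif, fell by 0.29 through its brightest probe set (SE 0.052, limma adjusted p = 0.0024). Its 4 probe sets disagreed, with differences up to 0.21, and over their mean the call was lost (-0.062, adjusted p = 0.42). Hnrnpd, which encodes an AU-rich element binding protein, fell by 0.23 (SE 0.063, limma adjusted p = 0.038), and 11 of the 17 arrays each took that call away when left out (highest adjusted p 0.082). In the fit over all probe sets, 0 of its 3 probe sets passed.

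Reported regulators of Cirbp or Rbm3 rose in 1 of 11 measured cases and fell in none (limma; 5 higher and 0 lower at an unadjusted p under 0.05), with a median of 0.065. Creb1, which encodes a cAMP-responsive factor on a route from TrkB to RBM3 in cooled mouse neurons, rose by 0.18 (SE 0.043, limma adjusted p = 0.019). Its 6 probe sets had differences from 0.051 to 0.18, and 1 of them passed as higher in the fit over all probe sets. Ntrk2, the TrkB gene, was at 0.087 (adjusted p = 0.20). Plcg1, named after the data were seen, was at -0.025 (adjusted p = 0.79) through its brightest probe set. Of its 3 probe sets, with differences up to 0.24, 1 passed as higher. The temperature-sensitive splicing kinase genes Clk1 and Clk4 were at 0.19 and 0.047 (adjusted p = 0.10 and 0.74), and Hnrnph1, whose product is reported to control splicing of a premature-stop exon of RBM3 in human cells, at 0.13 (adjusted p = 0.12). After quantile normalization Clk1 and Hnrnph1 passed too (0.23 and 0.16, adjusted p = 0.042 and 0.027), while 2 genes of the list passed without undisturbed replicate 4, and Creb1 missed the threshold when read through its most variable probe set (0.17, adjusted p = 0.24).

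Of 7 mRNAs reported to be bound or stabilised by CIRBP or RBM3, 0 passed in limma (1 higher and 2 lower at an unadjusted p under 0.05, 0 with a trended and robust variance). Clock, a circadian transcription factor gene, was at 9.05, 9.19 and 9.36 (lowest, median, highest) in sleep-deprived and 9.08, 9.19 and 9.34 in undisturbed animals (-0.0078, adjusted p = 0.95). Rtn3, reported as an RBM3 target in mouse brain, was at -0.040 (adjusted p = 0.59). Ptgs2, named after the data were seen, had the largest difference of the list, -0.29 (SE 0.096, limma adjusted p = 0.098). Its 2 probe sets were at -0.29 and -0.28, and 1 of them passed as lower in the fit over all probe sets. Without sleep-deprived replicate 6, or without undisturbed replicate 5, 1 gene of the list passed as lower.

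Clock genes and clock outputs fell in 3 and rose in 2 of 21 measured cases, with a median of -0.025. Dbp, a clock output, fell by 0.50 (SE 0.070, limma adjusted p = 0.00031) through both of its probe sets, and Cry2 and Ciart fell by 0.18 and 0.22 (limma adjusted p = 0.048 and 0.035). Nfil3, which encodes a repressor at the sites that DBP activates, rose by 0.35 (SE 0.062, limma adjusted p = 0.0022). Tef rose by 0.22 (SE 0.042, limma adjusted p = 0.0050), without overlap between the groups and with a probe set of opposite sign (-0.14). Its call was lost over the mean of its probe sets (0.10, adjusted p = 0.15) and with the most variable one (0.23, adjusted p = 0.13). The period genes missed the threshold, Per1 at 0.16 (adjusted p = 0.28) and Per2 at 0.0097 (adjusted p = 0.97). Leaving out 1 array ended the call of Cry2 in 14 cases and of Ciart in 9 (highest adjusted p 0.099 and 0.071). Neither gene's only probe set passed in the fit over all probe sets. The list had 3 calls without undisturbed replicate 3, 7 or 8 or sleep-deprived replicate 3, 5, 6 or 7.

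Chaperone genes, heat-inducible and constitutive ones together, rose in 4 of 24 measured cases and fell in none (limma; 8 higher and 0 lower at an unadjusted p under 0.05), with a median of 0.061. Hspb1, a small heat shock protein gene, was at 8.98, 9.37 and 9.75 (lowest, median, highest) in sleep-deprived and 8.59, 8.86 and 9.03 in undisturbed animals. It rose by 0.50 (SE 0.087, limma adjusted p = 0.0020), through both of its probe sets. Chordc1 rose by 0.25 (SE 0.058, limma adjusted p = 0.019), and Ahsa2 and Dnajb4 by 0.18 and 0.15 (limma adjusted p = 0.030 and 0.042). Classic heat-inducible genes did not pass: Hspa1b was at -0.024 (adjusted p = 0.90), Dnajb1 at -0.0046 (adjusted p = 0.98) and Hsph1 at 0.14 (adjusted p = 0.095). Hspa8, a constitutive chaperone gene, was at 0.069 (adjusted p = 0.36), and its most variable probe set at 0.42 (adjusted p = 0.0097). After quantile normalization Hsph1 passed (0.18, adjusted p = 0.022). Leaving out 1 array ended the call of Ahsa2 in 7 cases and of Dnajb4 in 13 (highest adjusted p 0.065 and 0.089), and the probe sets of Dnajb4 ran from -0.10 to 0.16, with no call over their mean (0.068, adjusted p = 0.27). No probe set of Ahsa2 or Dnajb4 passed in the fit over all probe sets. The list had 2 calls without undisturbed replicate 3, 6, 7 or 8 or sleep-deprived replicate 3, 4 or 5.

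Within groups, Cirbp was set against 5 of these chaperone genes after the data were seen, and none of the 10 relations passed (smallest adjusted p = 0.37, exact permutation). Its r with Hspb1 was -0.60 among sleep-deprived animals (rho -0.52, exact permutation p = 0.11 and 0.20) and -0.17 among undisturbed animals (rho -0.23, exact permutation p = 0.66 and 0.55), or -0.33 and 0.11 without the 2 animals farthest on Cirbp. With Hspa1b it was 0.21 among sleep-deprived (rho 0.12, exact permutation p = 0.61 and 0.79) and -0.11 among undisturbed animals (rho 0.18, exact permutation p = 0.77 and 0.64), or -0.28 and -0.31 without those 2. With Hspa8 it was -0.075 among sleep-deprived (rho 0.024, exact permutation p = 0.86 and 0.98) and 0.27 among undisturbed animals (rho 0.22, exact permutation p = 0.48 and 0.58), or -0.14 and 0.42 without those 2. For Hspa1b and Hspa8 the sign of r thus differed between the groups. With Hsph1 it was -0.42 among sleep-deprived (rho -0.43, exact permutation p = 0.31 and 0.30) and -0.65 among undisturbed animals (rho -0.43, exact permutation p = 0.058 and 0.25), or -0.43 and -0.64 without those 2. For Dnajb1 it was -0.41 among sleep-deprived (rho -0.48, exact permutation p = 0.32 and 0.24) and -0.58 among undisturbed animals (rho -0.37, exact permutation p = 0.11 and 0.34). Without those 2 it was -0.86 (exact permutation p = 0.018, unadjusted, 1 of 10 such values) and -0.50. For Hspb1, Hsph1 and Dnajb1, r and rho over all animals of a group were negative in both groups.

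Of 19 cleavage and polyadenylation factor genes, which act at the sites that CIRBP and RBM3 are reported to influence, 0 passed in limma (1 higher and 4 lower at an unadjusted p under 0.05, 1 with a trended and robust variance, and 1 without sleep-deprived replicate 1), with a median of -0.072. Of 15 stress granule genes Ddx3x, an RNA helicase gene, fell (-0.18, SE 0.049, limma adjusted p = 0.041) and none rose (3 lower and 0 higher at an unadjusted p under 0.05). No gene of that list passed without undisturbed replicate 1, 2, 3, 4 or 6 or sleep-deprived replicate 2, 3, 5 or 7. The shares called in the 7 lists ran from 0% to 23.8%, beside 3.97% of all genes.

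**Figure D4:**
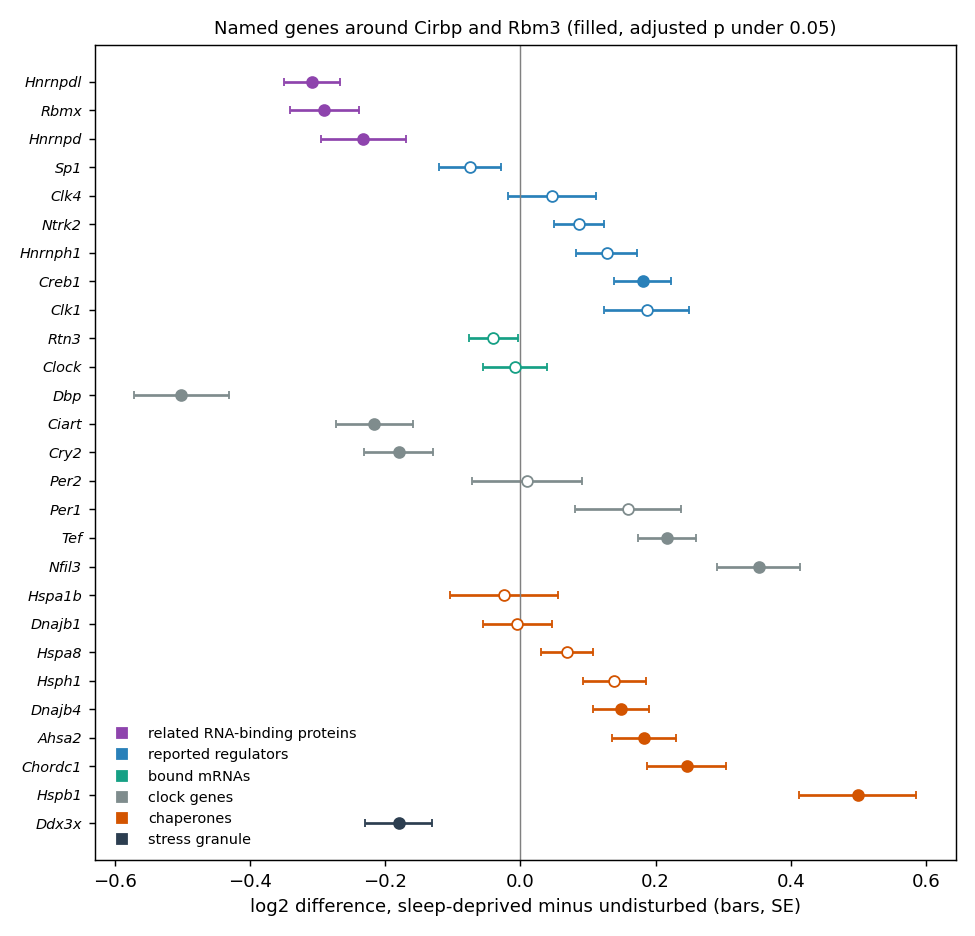
Log2 difference, sleep-deprived minus undisturbed, of 27 named genes of 6 lists around Cirbp and Rbm3, with SE bars; filled points passed an adjusted p of 0.05 in limma. Hnrnpdl, Rbmx and Hnrnpd lie left of 0 (-0.31, -0.29 and -0.23), Hspb1 lies farthest to the right (0.50) and Clock and Per2 lie near 0.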

How the data were processed

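The deposited values are log2 signals, 1 per probe set and array, from RMA with the affy package, per the submitters' processing notes; log base 2 was inferred from their range, 2.90 to 14.8. RMA equalises the distribution of probe signals over arrays, which hides a shift common to the whole transcriptome, and it compresses dim differences. Versions and filters were not given in the sources used here. Arrays have no depth; their number limits precision. No value was missing.

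After 64 control probe sets were left out, 34945 carried 1 symbol, 932 several and 9160 none. Of those with 1 symbol, 34741 matched RefSeq (GRCm38.p6) by Entrez identifier. Differences came from limma 3.58.1 in R 4.3.3 (lmFit, eBayes), with Benjamini-Hochberg adjustment over all probe sets or genes and a threshold of 0.05. SE is the moderated standard error. Correlations used exact permutation over 40320 or 362880 pairings. The fit was tested on simulated data. Replicates are separate animals.

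The members and lists were chosen with earlier results of these data known. Named genes were every called gene of a list (up to 6) and 16 fixed names, of which Hsf1 was not measured, plus the 6 most and 3 least alike genes; 5 chaperones and the technical measures were correlated after the data were seen. The main fit did not pair animals by replicate number. After each group's mean was subtracted, same-numbered animals of the groups correlated at -0.16 to 0.39, over 0.1 in 3 of 8 cases. Such values cannot exclude a pairing in the experiment.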

Additional observations from a re-analysis of the deposited data

Results flagged for a closer look

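Among 60 groups of values checked, of the 3 probe sets and the 27 named genes, 2 held an animal far from the others of its group; chance gives about 1 in 20. Hnrnpd in sleep-deprived replicate 5 was at 9.75, the nearest other animal being at 9.96, a gap of 0.56 of the group's range. Creb1 in sleep-deprived replicate 2 was at 9.62, the nearest other being at 9.79, a gap of 0.60 of the range. None of the values of Cirbp, 1422660_at or 1429169_at stood out by that measure.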

How the results depend on the processing

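The differences of Cirbp, 1422660_at and 1429169_at stayed within -0.70 to -0.64, -0.79 to -0.73 and 0.39 to 0.44 over 6 alternatives, and within -0.75 to -0.63, -0.84 to -0.67 and 0.39 to 0.45 with each array left out. With the replicate block they were -0.66, -0.75 and 0.40; 913 genes were called with the block, no called regulator was left (Creb1, adjusted p = 0.059), and 1 of 8 sleep-deprived animals correlated best with its own number. Filtering dim probe sets raised the called probe sets to 1379, fewer being tested. List counts moved as follows, and the cause was not tested. Median centring left 2 chaperones. Quantile normalization gave 3 regulators, 1 polyadenylation factor and 0 stress granule genes. The choroid plexus covariate left 3 clock and 0 stress granule genes. Array weights, a trended and robust variance or the filter gave 1 polyadenylation factor each. With the most variable probe set 1 related gene, 3 clock and 2 stress granule genes passed, and 4 named genes changed sign, the called Rbmx (0.21) and Dnajb4 (-0.10) and the uncalled Sp1 (0.087) and Ntrk2 (-0.021). The mean of all probe sets gave 2 regulators and 1 bound mRNA. With each array left out, the called genes ran from 481 (without undisturbed replicate 4) to 817, and the lists from 3 to 7 (clock), 2 to 4 (chaperones), 1 to 2 (regulators) and 0 to 1 (stress granule, polyadenylation, bound mRNAs). In undisturbed animals the correlation of Cirbp with 1422660_at then ran from 0.71 to 0.88 and with 1429169_at from -0.79 to -0.65; the second was -0.70 (adjusted p = 0.054) after the RNA quality index. Of 729 values of named genes, 636 stayed on their side of the threshold and 5 gained the call. The call was lost with the sign kept in 86 and with a changed sign in 2. In all, 32 values changed sign, those 2 of called genes and 30 of genes not called, over 8 genes.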
